A study of Mus musculus with 6 samples.

Results

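Muc1, Podxl, Cd44, Cd24a, Lgals1 and Lgals3 encode surface glycoproteins and lectins through which an embryo can touch the wall of the uterus. The 6 genes were taken as a fixed list of names, and every array feature carrying one of those names was used. This gave 9 features of 33026 with a gene name, and 6 genes of 22485. Cd44 had 4 features and each of the other 5 genes had 1.

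The samples were whole day 5 blastocysts of the B6C3F1 mouse strain. Females of 6 to 8 weeks received 10 IU of a gonadotropin and, 48 hours later, 10 IU of hCG before mating, and the embryos flushed from the oviduct were cultured for 72 hours. In 3 samples the medium held 400 nM of a mimic of miR-30d, a microRNA released by the endometrium, and in 3 it held 400 nM of a scramble oligonucleotide with the dye Alexa 488. Each condition used 30 embryos. From every sample 50 ng of RNA was amplified, dyed with Cy3 and put on an array of its own. The dye is named for the scramble group alone, so an effect of the dye and an effect of miR-30d cannot be told apart. The titles call the replicates biological without saying what separates them, so the p-values speak only of the spread among these arrays, which may be technical.

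Attachment begins when the trophectoderm, the outer epithelium of the blastocyst, meets the epithelium of the uterus. Large mucins such as MUC1 hold 2 surfaces apart, whereas selectins bind sialylated and sulphated sugars on mucin-like proteins and can tether rolling cells. Galectins are small lectins that bind beta-galactosides outside the cell and cross-link glycoproteins. Of the products studied here, podocalyxin is a sialomucin of the CD34 family, CD44 is the main receptor for hyaluronan, and CD24 is a small, heavily glycosylated surface protein that binds P-selectin.

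The array signal split the genes into 2 sets, and the promoters of 1 gene from the bright end and 2 from the dim end are shown for orientation. Of the 6 genes, 3 had an entry in the RefSeq promoter table (GRCm38.p6). The 150 bases before the annotated start are printed 5′ to 3′ on the strand of the gene. Capitals mark the motifs TATAAA and GGGCGG on either strand, which did not overlap each other. The stretches lie at chr14:47373710-47373859 on the plus strand for Lgals3, at chr3:89228906-89229055 on the plus strand for Muc1 and at chr2:102901666-102901815 on the minus strand for Cd44.
Lgals3: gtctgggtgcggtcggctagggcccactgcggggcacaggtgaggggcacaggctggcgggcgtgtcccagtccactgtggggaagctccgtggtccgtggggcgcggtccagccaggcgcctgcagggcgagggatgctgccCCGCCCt
Muc1: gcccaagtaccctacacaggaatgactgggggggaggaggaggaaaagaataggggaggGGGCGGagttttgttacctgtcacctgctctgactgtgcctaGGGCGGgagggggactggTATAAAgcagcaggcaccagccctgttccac
Cd44: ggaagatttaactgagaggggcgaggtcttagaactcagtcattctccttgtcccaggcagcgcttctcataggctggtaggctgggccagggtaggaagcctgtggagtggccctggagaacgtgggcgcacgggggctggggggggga
Muc1 held 1 TATAAA, 31 bases before the start, and 2 copies of GGGCGG, at 91 and 49 bases. Lgals3 held 1 GGGCGG on the opposite strand, 7 bases before the start, and neither motif occurred in the Cd44 window. Over the 32851 promoters searched in the same window, 7.57% held TATAAA and 28.6% held GGGCGG. These matches describe the letters only.

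The 2 galectins were the only genes of the 6 read far above the dim end of the arrays. Values are log2 signal, and signals of different features do not compare amounts between genes. Lgals1 lay above 99.9% of the named features by its mean and Lgals3 above 97.7%. Podxl and Cd24a lay above 54.8% and 53.4%, close to the median of 7.45. Muc1 lay above 12.2%, and the 4 Cd44 features lay above 3.6% to 45.5%. The lowest 25% of features by mean, below 7.16, were left out of the comparison. This removed the single Muc1 feature and 1 Cd44 feature, so 7 of the 9 features and 5 of the 6 genes were tested in it. No detection limit was used here, and the features without a gene name had a median of 7.20, so a level near 7 is not evidence of a transcript.

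**Figure D1:**
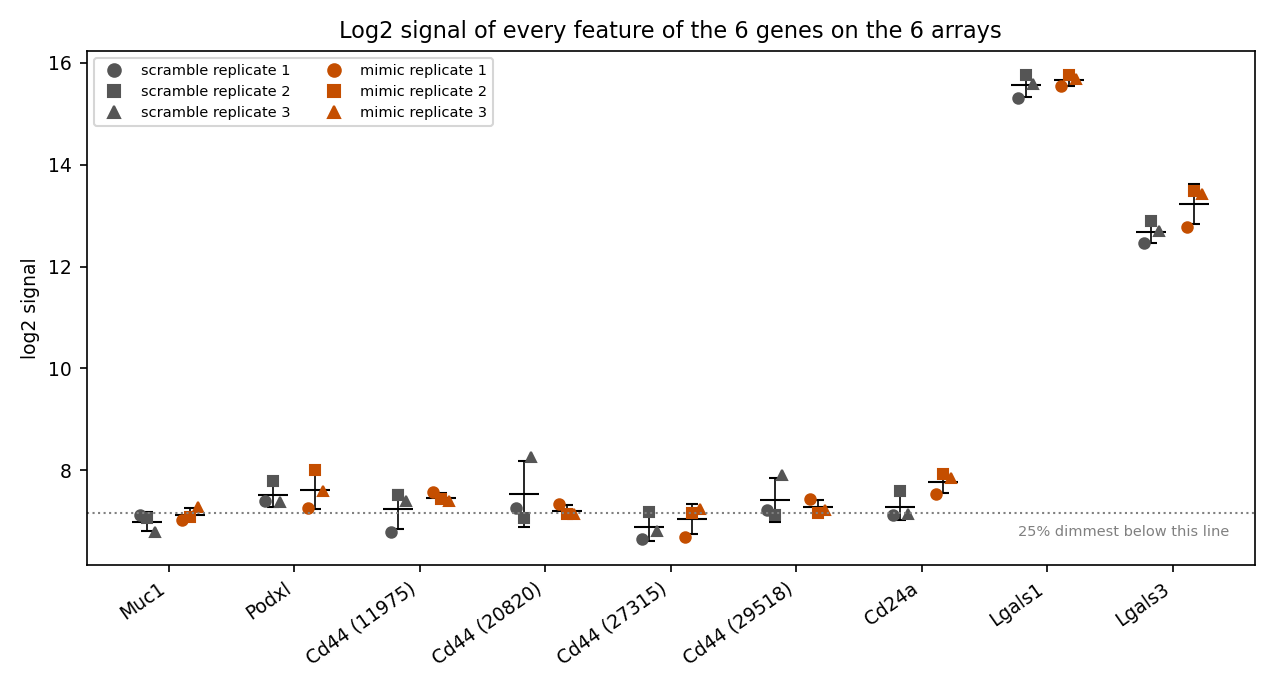
Log2 signal (vertical axis) of the 9 features on the 6 arrays, with scramble in grey and mimic in orange, a symbol per replicate number, and the group mean with its SD as a bar. Lgals1 and Lgals3 sit between 12.46 and 15.76, and the highest value of the other genes is 8.27 (Cd44).

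None of the 7 features tested was called between mimic and scramble by limma at an adjusted p of 0.05. Over all 24769 features limma also called 0 (0.0%), and the smallest adjusted p was 0.979. At an unadjusted p under 0.05, 1 of the 7 features, that of Lgals3, was counted, on the higher side, against 770 features over the whole array (3.11%), 1.78% higher and 1.32% lower. In none of the 9 features of the 6 genes, tested or dim, did the 2 groups lie apart. Over all features tested, 9.8% had groups that did not overlap. With so few features, a count of 0 is close to that share and is not a result about these genes. Of the 7 features 5 were higher with the mimic and 2 lower. With the replicate number as a block, 1755 features (7.09%) had an unadjusted p under 0.05 and 1 was called (0.00404%), and of the 7 features Lgals3 alone was again counted.

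Lgals3 encodes galectin-3, which joins a single sugar-binding domain to a tail through which it forms oligomers. Its log2 signal was 12.46, 12.90 and 12.70 in scramble replicates 1 to 3, and 12.77, 13.48 and 13.42 in mimic replicates 1 to 3. The mimic arrays of replicates 2 and 3 were the highest, while mimic replicate 1 read below scramble replicate 2, so the groups overlapped. The means were 12.69 ± 0.22 with scramble and 13.23 ± 0.39 with the mimic (SD, n = 3 each). The log2 difference was 0.54 (SE 0.21), a 1.45-fold higher signal with a 95% interval of 1.04 to 2.04. It did not pass in limma (adjusted p = 0.979, and from 0.361 to 1 over the alternatives), and a two-sided exact permutation test gave p = 0.2, where 3 arrays against 3 allow no less than 0.1.

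Both replicate 1 arrays stood apart from the other 4, with a median correlation to the rest of 0.922 for scramble and 0.946 for the mimic against 0.974 to 0.976. Each also held the lowest Lgals3 reading of its group. Between arrays of the same replicate number Lgals3 was higher with the mimic by 0.31, 0.58 and 0.73 on the log2 scale. Without both replicate 1 arrays the log2 difference was 0.65 (limma adjusted p = 0.641), and with each array left out in turn it went from 0.41 to 0.76. With the replicate block the SE was 0.10, and limma gave an unadjusted p of 0.0016 and an adjusted p of 0.361.

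Lgals1 encodes galectin-1, which binds sugars as a homodimer. Its log2 signal was 15.32, 15.76 and 15.59 with scramble and 15.54, 15.75 and 15.69 with the mimic, in the order of the replicates. On scramble replicate 2 and mimic replicate 2 this was the highest value of the array, shared by 159 and 162 features, so its order among them cannot be read and its difference can be understated. The means were 15.56 ± 0.22 and 15.66 ± 0.11 (SD, n = 3 each). The log2 difference was 0.11 (SE 0.24, 95% interval from -0.44 to 0.65), and it was -0.01 without scramble replicate 1. The limma adjusted p was 0.984 and the two-sided exact permutation p was 0.7. With the replicate block the SE was 0.10.

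Cd24a, which encodes the mouse CD24 core protein, had log2 signals of 7.12, 7.59 and 7.14 with scramble and 7.53, 7.93 and 7.85 with the mimic. The mimic array was the higher one in each same-numbered pair, by 0.42, 0.34 and 0.71, but mimic replicate 1 read below scramble replicate 2. The means were 7.28 ± 0.27 and 7.77 ± 0.21 (SD, n = 3 each), and the log2 difference was 0.49 (SE 0.26, 95% interval from -0.10 to 1.07). It did not pass in limma (adjusted p = 0.979), and the two-sided exact permutation p was 0.2. The feature lay near the dim end, where a log2 difference can understate the true one and where background correction can change values most. With each array left out in turn the difference went from 0.41 to 0.64.

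Podxl, the gene of the sialomucin podocalyxin, had log2 signals of 7.39, 7.79 and 7.37 with scramble and 7.26, 8.01 and 7.58 with the mimic. Replicate 2 was the highest array of both groups, and the mimic held both the highest and the lowest reading. The log2 difference was 0.10 (SE 0.29, 95% interval from -0.55 to 0.75, limma adjusted p = 0.986). Leaving out mimic replicate 2 turned it to -0.09.

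The 4 features of Cd44 did not point one way. On feature 20820, the one with the highest mean, the log2 signal was 7.26, 7.06 and 8.27 with scramble and 7.34, 7.15 and 7.14 with the mimic. Scramble replicate 3 stood alone above 8, and feature 29518 had its highest value, 7.91, on the same array. The log2 differences were -0.32 (SE 0.32) and -0.15 (SE 0.25) on these 2 features, and 0.05 and 0.10 without scramble replicate 3. Feature 11975 had a difference of 0.23 (SE 0.24), which was -0.04 without both replicate 1 arrays, and feature 27315, left out as dim, had 0.15 (SE 0.19). No Cd44 feature passed in limma, with adjusted p from 0.979 to 0.985.

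Muc1, the gene of the transmembrane mucin of apical epithelial surfaces, had log2 signals of 7.12, 7.07 and 6.78 with scramble and 7.03, 7.08 and 7.28 with the mimic. All 6 readings lay below the median of 7.45, and the groups overlapped. Fitted with the dim features kept in, the log2 difference was 0.14 (SE 0.16, limma adjusted p = 0.985). It was 0.04 without scramble replicate 3, 0.07 without mimic replicate 3 and 0.25 without both replicate 1 arrays.

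**Figure D2:**
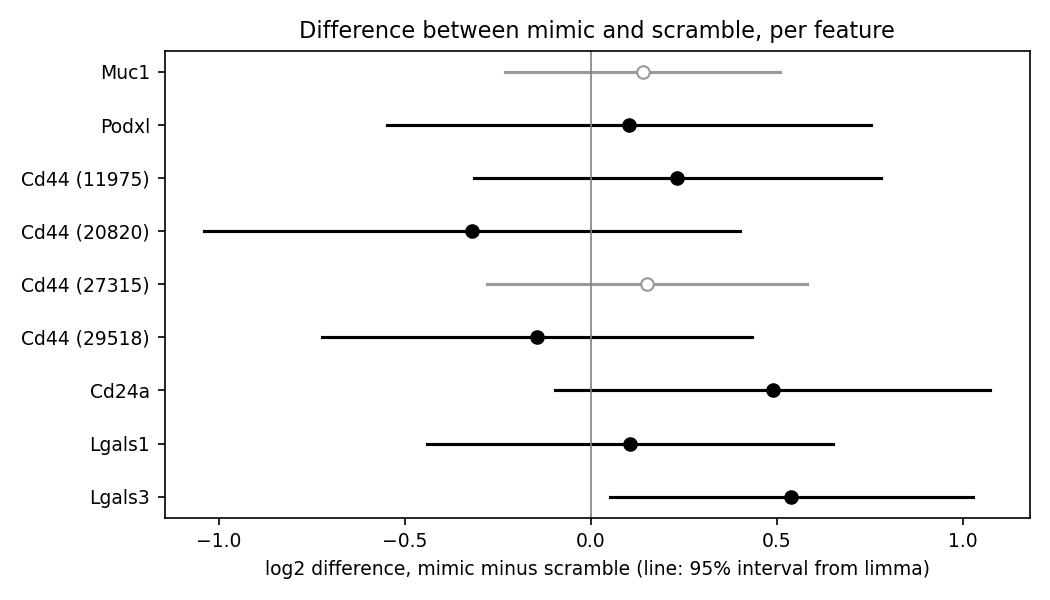
Log2 difference between mimic and scramble (horizontal axis) for each of the 9 features, with the 95% interval from limma as a line, and open grey points for the 2 features left out as dim. The interval of Lgals3 runs from 0.05 to 1.03, and the other 8 intervals include 0.

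The cell types of the samples were checked with marker lists, each gene read on its brightest feature. All 10 trophectoderm and all 10 primitive endoderm markers lay above the median of the named features, as did the 9 of 10 inner cell mass markers that could be matched. The mean log2 signal over the trophectoderm list was 12.17 to 12.40 with scramble and 12.04 to 12.39 with the mimic, and 2 of its 10 genes were higher with the mimic and 8 lower. The primitive endoderm list had 9.95 to 10.31 and 10.23 to 10.42, with 8 of 10 genes higher, and the inner cell mass list had 9.51 to 9.74 and 9.58 to 9.69, with 6 of 9 higher. The part of these shifts in the Lgals3 and Cd24a differences was not tested. In a whole blastocyst, fewer cells of a type and less RNA per cell cannot be told apart.

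Among cells that can come along from the mother, cumulus cells carry CD44, and 3 of the 9 cumulus markers matched lay above the median (Amhr2, Foxl2 and Nr5a2), while 4 of the 9, Fshr, Ptx3, Tnfaip6 and Star, lay in the lowest 25%. In the other lists, 2 of 9 oviduct, 2 of 8 blood, 5 of 10 endothelial and 2 of 10 stroma markers lay above the median. The cumulus list had a mean of 8.14 to 8.42 with scramble and 8.15 to 8.57 with the mimic, the blood list 7.65 to 7.73 and 7.51 to 7.75, the oviduct list 7.47 to 7.75 and 7.45 to 7.53, the stroma list 7.17 to 7.40 and 7.17 to 7.25. The endothelial list had 7.96 to 8.19 and 7.96 to 8.59. The groups overlapped in each of these lists, and the part of such cells in the values above was not tested.

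The other galectins were read next to Lgals1 and Lgals3. Of 10 galectins and related genes 9 had a feature and 7 were tested, 3 higher and 4 lower with the mimic, with a median log2 difference of -0.02 against 0.02 over all 17399 genes tested. Lgals4, a galectin of gut-type epithelia with 2 sugar-binding domains, was bright on all 3 of its features and lower with the mimic on each. On its brightest feature it had 13.49, 13.36 and 13.33 with scramble and 12.82, 13.05 and 13.30 with the mimic. Every mimic array lay below every scramble array on all 3 features, and the log2 difference was -0.34 (SE 0.16) on the brightest, -0.37 (SE 0.15) on feature 2527 and -0.44 (SE 0.13) on feature 10324. None passed in limma (adjusted p = 0.979 on the brightest). The unadjusted limma p was 0.0677 on the brightest feature, 0.0346 on feature 2527 and 0.0102 on feature 10324. On that feature the difference was -0.22 without mimic replicate 1 and -0.17 without both replicate 1 arrays. The 3 features read the same RNA samples and are not replicates, and Lgals6, a close copy of Lgals4 in some mouse strains, was not told apart from it.

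Lgals2 and Lgals8 had positive differences. Lgals2 had 6.76, 7.45 and 7.36 with scramble and 7.83, 7.81 and 7.84 with the mimic, and the groups did not overlap. Its log2 difference was 0.64 (SE 0.26, limma adjusted p = 0.979), and it was 0.42 without scramble replicate 1. Of the 7 genes tested in this list, each on its brightest feature, Lgals2 alone had an unadjusted limma p under 0.05 (0.0385). Its scramble readings lay at the dim end. Lgals8, whose product joins 2 sugar-binding domains, had 7.23, 8.64 and 7.93 with scramble and 8.37, 8.59 and 8.59 with the mimic, which differ by a log2 value of 0.58 (SE 0.38, limma adjusted p = 0.979). This rested on the low reading of scramble replicate 1, and the difference was 0.23 without that array and 0.94 without scramble replicate 2. Over all genes, read on the brightest feature, 5.58% were higher and 4.12% lower with groups that did not overlap, 9.7% in all, 53.2% were higher with or without overlap, and 3.2% had an unadjusted p under 0.05.

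**Figure D3:**
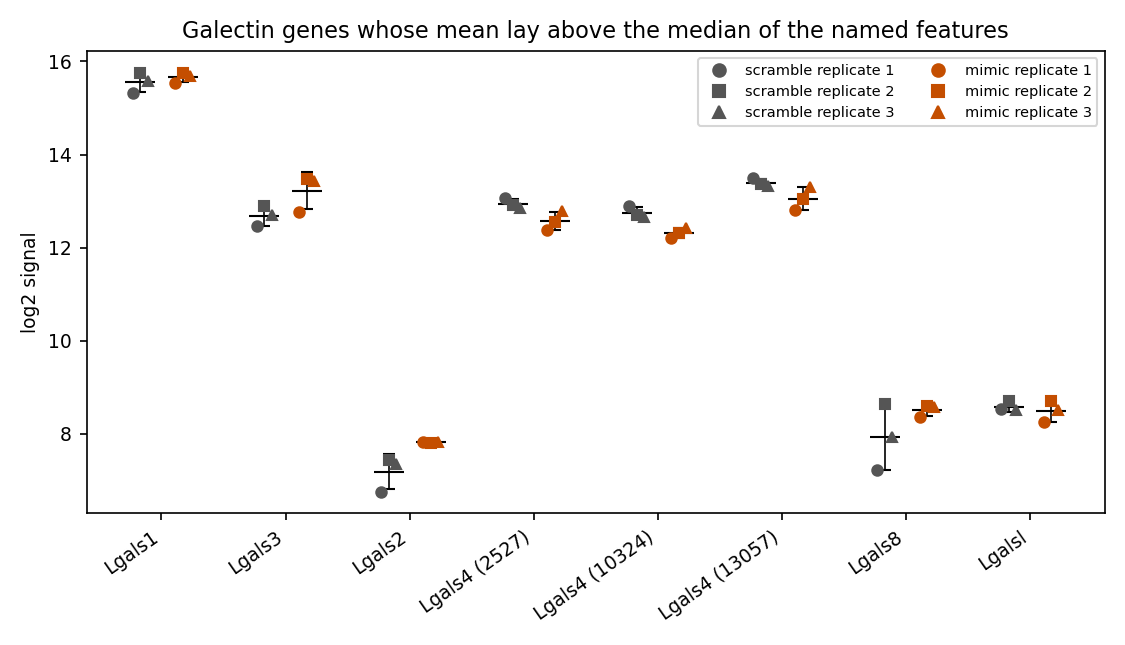
Log2 signal (vertical axis) of the galectin genes whose mean lay above the median of the named features, with scramble in grey, mimic in orange, a symbol per replicate and the group mean with its SD as a bar. The mimic arrays sit lower on all 3 Lgals4 features, and on Lgals3 mimic replicate 1 (12.77) falls among the scramble arrays.

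Mucins other than Muc1 were dim. Of 15 mucins and mucin-like proteins 14 had a feature, 9 were tested and only Cd164, the gene of the sialomucin endolyn, lay above the median. It had 11.73, 12.58 and 12.01 with scramble and 11.88, 12.44 and 12.31 with the mimic, which differ by a log2 value of 0.10 (SE 0.23). With the mimic 6 of the 9 genes were higher and 3 lower. Their log2 differences had a median equal to the value of Cd164, and limma called 0, with 0 at an unadjusted p under 0.05. Muc13, Muc16 and Muc20 had the smallest p of the list, at 0.18 (SE 0.20), -0.22 (SE 0.19) and 0.18 (SE 0.19) on the scale of log2 differences. Muc13 had 0.11 without scramble replicate 1, Muc16 -0.05 without mimic replicate 3 and Muc20 0.07 without scramble replicate 3. The mimic mean of Muc16 (7.07) lay below the dim cutoff of 7.16, so the filter kept it only through its scramble readings.

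Selectins and their protein ligands were also dim, apart from Glg1, the gene of a Golgi glycoprotein that binds E-selectin. Glg1 and Cd164 were named after their values were seen. Of 9 genes 8 had a feature and 6 were tested, 3 higher and 3 lower, with a median of -0.10, and limma called 0, with 0 at an unadjusted p under 0.05. The log2 difference was -0.51 (SE 0.36) for Selp, -0.29 (SE 0.34) for Madcam1 and -0.25 (SE 0.30) for Selplg, and each rested on 1 high scramble array. Madcam1 had 0.11 without scramble replicate 1, Selplg had 0.09 without scramble replicate 3, and Selp had -0.08 without scramble replicate 1. The other tested features of Selp had 0.15, 0.15 and 0.23, and that of Madcam1 had 0.19. On their brightest features the mimic means of Selp (7.11) and Madcam1 (7.15) lay below the dim cutoff of 7.16. The filter thus kept these features only through their scramble readings. It kept Selp features 28844 and 33558 and the other Madcam1 feature only through their mimic readings. With all tested features of a gene averaged, Selp had 0.0049, Madcam1 had -0.05 and the list median was -0.02.

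The enzymes that build sugar ligands for selectins and galectins were lower in 10 of 16 genes tested and higher in 6, with a median of -0.10. All 19 had a feature, 7 of them above the median, and limma called 0, with 1 at an unadjusted p under 0.05. That gene was Gcnt1, whose enzyme starts the core 2 branch of O-glycans on which selectin ligands are built. It had 10.07, 10.43 and 10.74 with scramble and 9.27, 10.07 and 10.06 with the mimic, which differ by a log2 value of -0.62 (SE 0.26, limma adjusted p = 0.979). Without mimic replicate 1 it was -0.35. Its second feature had -0.55 (SE 0.26). The groups did not overlap on either feature, although on the first the nearest arrays differed by less than 0.01.

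Chst1, a keratan sulphate sulphotransferase gene, had 8.59, 8.62 and 8.61 with scramble and 8.59, 8.04 and 7.87 with the mimic. Its groups did not overlap, but mimic replicate 1 was close to the scramble arrays, and the log2 difference was -0.44 (SE 0.29). Fut9, a fucosyltransferase gene of Lewis X synthesis, had -0.23 (SE 0.22) on its brightest feature, 0.22 (SE 0.23) on the other and -0.0061 with the 2 averaged.

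Partners of CD44 and podocalyxin were tested as 3 further lists, in which limma called 0 genes, with 0 at an unadjusted p under 0.05. The hyaluronan list had 11 genes tested, 6 of them higher and 5 lower, and a median log2 difference of 0.01. Hyal2, a hyaluronidase gene, had 10.03, 9.94 and 9.97 with scramble and 10.17, 10.14 and 10.14 with the mimic, a narrow difference of 0.17 (SE 0.14) without overlap. Hyal3 had -0.36 (SE 0.18), also without overlap but dim and at -0.21 without scramble replicate 1. The scavenger receptor gene Stab1 had -0.96 (SE 0.49), with groups that overlapped, and -0.39 without scramble replicate 1. The mimic means of Hyal3 (6.98) and Stab1 (7.11) lay below the dim cutoff of 7.16. The filter thus kept both genes only through their scramble readings. Has2, a hyaluronan synthase gene named after its values were seen, had 0.23 (SE 0.21) without overlap.

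The linkers of podocalyxin and CD44 to actin were mostly bright, with 6 of 7 above the median. Of these 7 genes 6 were higher with the mimic and 1 lower, and the median difference was 0.09, or 0.02 with all tested features of a gene averaged. The genes counted as higher include Pdzk1 at 0.0008 and Slc9a3r2 at 0.02, and the lower one was Rdx at -0.04. Msn, the gene of moesin, had 13.26, 13.29 and 13.39 with scramble and 13.57, 13.36 and 13.82 with the mimic, which differ by a log2 value of 0.27 (SE 0.16), or 0.15 without mimic replicate 3. The scaffold gene Slc9a3r1 had 0.13 (SE 0.16), which was -0.06 without both replicate 1 arrays. Nf2 had 0.20 (SE 0.39) on its brightest feature, which was -0.13 without scramble replicate 1, and -0.59 (SE 0.44) on its other feature.

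Of the proteases that cut CD44 or MUC1, 2 of 3 were tested, both higher, with a median of 0.28. Mmp14, left out as dim, had -0.27 (SE 0.14) without overlap, and without a dim filter the median was 0.14. Adam10 had 9.67, 10.41 and 10.35 with scramble and 10.53, 10.48 and 10.69 with the mimic, without overlap. Its log2 difference was 0.42 (SE 0.21), and it was 0.19 without scramble replicate 1. Adam17 had 0.14 (SE 0.22) on its brightest feature and 0.62 (SE 0.43) on the other, 0.38 with the 2 averaged. That other feature had a scramble mean of 6.95, below the dim cutoff of 7.16, and was kept only through its mimic readings. On the brightest, leaving out scramble replicate 3 gave 0.03 and leaving out scramble replicate 2 gave 0.24.

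Of 13 other attachment genes all were tested, 9 higher and 4 lower, with a median of 0.07, and limma called 0, with 0 at an unadjusted p under 0.05. The syndecan genes Sdc1 and Sdc2, which encode heparan sulphate proteoglycans, had 0.55 (SE 0.36) and 0.24 (SE 0.25), and the adhesion gene L1cam had 0.22 (SE 0.25). Each of these values moved when a single array was left out. Sdc1 went from 0.31 without scramble replicate 1 to 0.85 without mimic replicate 1, Sdc2 from 0.07 without scramble replicate 3 to 0.39 without mimic replicate 3, and L1cam from 0.04 without scramble replicate 1 to 0.35 without mimic replicate 1. Siglecg, whose product belongs to the sialic acid-binding lectins that recognise CD24, was dim and had 0.14 (SE 0.18) without overlap, and was named after its values were seen. Over the 8 lists together, groups did not overlap in 9 of 71 genes tested (12.7%), 5 higher and 4 lower, against 9.7% of all genes. The lower ones include Hyal3, which the dim filter kept only through its scramble readings.

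**Figure D4:**
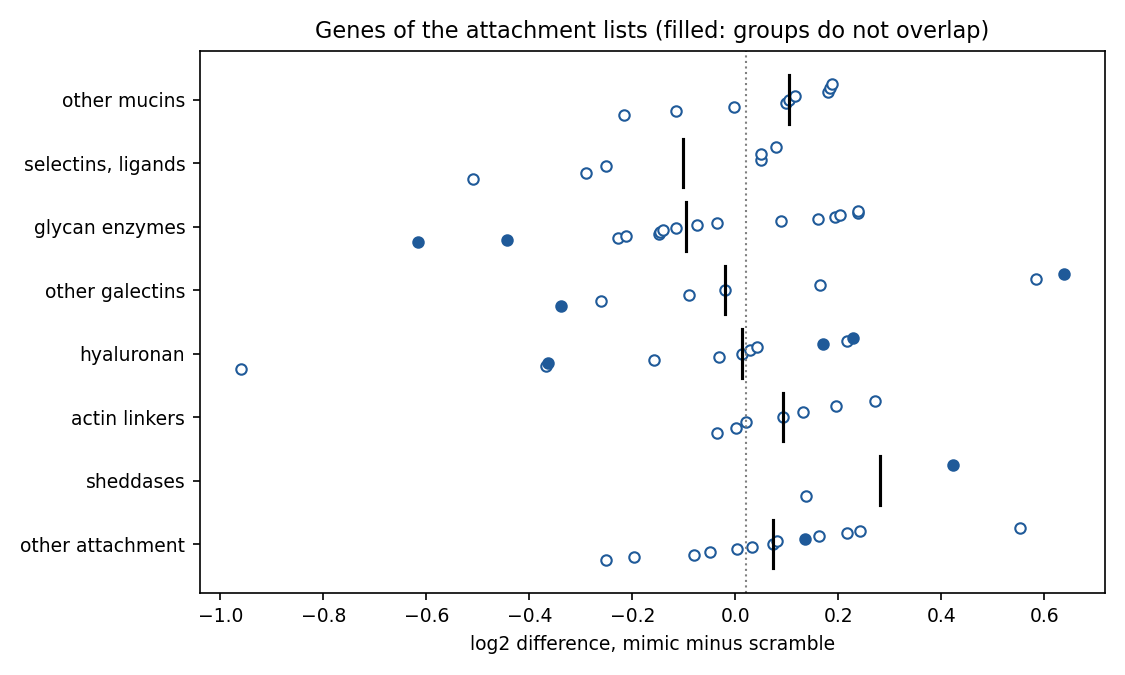
Log2 difference between mimic and scramble (horizontal axis) of each gene tested in the 8 lists, with filled points where the groups do not overlap, a black line at the median of the list and a dotted line at the median of all genes (0.02). The list medians lie between -0.10 and 0.28, and 9 genes are filled.

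Over the 6 arrays, the genes whose log2 signal ran most like Lgals3 were Usp16, a deubiquitinase gene (Pearson r = 0.994), and Plet1, a surface protein gene of trophoblast (r = 0.990). Plet1 had 11.65, 11.99 and 11.85 with scramble and 11.90, 12.44 and 12.27 with the mimic. The nearest to Cd24a were Rai14 (r = 0.991) and Igdcc4 (r = 0.990), and to Podxl 4930503L19Rik (r = 0.997) and Tmem165 (r = 0.994). Those of Cd44 were 4930548H24Rik (r = 0.996) and Gm4489 (r = 0.993), both with their highest value on scramble replicate 3. Lgals1 ran with Was and Dubr (r = 0.999 for each), and Muc1 with Slc35e4 (r = 0.978) and Lep (r = 0.977). These are the closest of 17398 or 17399 genes over only 6 arrays, where values this high arise easily: 59 genes exceeded 0.95 for Lgals3 and 429 for Lgals1, so the likeness is a description.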

How the data were processed

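The authors' deposited values are log2 signal of one-colour arrays, 45220 features on each of 6. Background correction and scaling, not given in the sources used here, can change dim values most. That the values are log2 was read from their range. Array medians of 7.37 to 7.38 mean that a change shared by most genes cannot be seen. Groups come from the titles.

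Features were named from the platform annotation, and symbols were updated by Entrez identifier through RefSeq (GRCm38.p6), which matched 32438 of the 33026 named features. The lowest 25% were removed, and the other 24769 were fitted in R 4.3.3 with limma 3.58.1 (eBayes with a trend, Benjamini-Hochberg adjustment, two-sided), after a test on simulated data. Lists used the brightest feature of each gene. The genes named by rule are the members, the 3 smallest p per list and the 2 genes most like each member. Cd164, Glg1, Has2, Siglecg, Mmp14, Pdzk1, Slc9a3r2 and Rdx fall outside this rule. Members and lists were chosen with earlier results of these data known.

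Within-group deviations correlated between arrays of replicate 1 at 0.336, of replicate 2 at 0.352 and of replicate 3 at 0.209. Each was over 0.1, the rule used for pairing. Unmatched arrays were over it too, with 0.196 for scramble 2 and mimic 3 and 0.129 for scramble 3 and mimic 2. The rule therefore cannot settle whether the numbers pair the samples. The fit without the replicate block was the main one, and the block was an alternative.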

Additional observations from a re-analysis of the deposited data

How the results depend on the processing

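The 3 arrays per group limit the precision. Over 15 alternatives limma called no feature of the 6 genes, and Lgals3, Cd24a and Muc1 kept their direction wherever they could be fitted. With the replicate block 1 feature of the whole array was called, and the block changed no other call. With each array left out in turn, Podxl went from -0.095 to 0.28, Cd44 from -0.55 to 0.050 on its brightest feature and from -0.29 to 0.10 on feature 29518, Lgals1 from -0.013 to 0.21, Madcam1 from -0.53 to 0.11, Selplg from -0.45 to 0.090 and Nf2 from -0.13 to 0.45. In the same way the list medians went from 0.052 to 0.13 for mucins, -0.19 to 0.055 for selectins, -0.11 to -0.021 for glycan enzymes, -0.084 to 0.056 for hyaluronan genes and 0.020 to 0.27 for actin linkers. Without both replicate 1 arrays, chosen because earlier results set them apart, Cd44 feature 11975 had -0.042, Madcam1 0.22, Slc9a3r1 -0.059, and the medians were -0.039 for glycan enzymes and 0.094 for hyaluronan genes. With the lowest 50% left out the medians were 0.079 for selectins, 0.25 for other galectins, -0.065 for hyaluronan genes and -0.024 for other attachment genes. Lgals2 and Sdc1, with scramble means of 7.19 and 7.29, passed this cutoff of 7.45 only through their mimic readings. Stab1 and Hyal1, with mimic means of 7.11 and 7.44, passed it only through their scramble readings. These medians therefore depend on the filter. Without a dim filter the mucin median was 0.0047. With all tested features of a gene averaged, Selp had 0.0049, Nf2 -0.20 and the glycan enzyme median was -0.021. The cause of these changes was not tested. Muc1 and the 4 Cd44 features could not be fitted with the lowest 50% left out.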
